A study of Mus musculus with 14 samples.

Results

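The last day of a differentiation course in C2C12 cells with reduced Klf5 was examined by setting day 3 beside day 2 in cells given Klf5 siRNA. C2C12 is a mouse myoblast line that leaves the cell cycle and fuses into myotubes once growth medium is replaced with differentiation medium holding 2% horse serum. The cells were transfected with a pool of siRNAs against Klf5 (siKlf5) or with control siRNA (siCtrl), and poly(A) RNA was sequenced on days 0, 1, 2 and 3, with 1 library per siRNA and day. The transcripts compared were those whose deposited FPKM value averaged at least 10 over the 8 RNA libraries, which was 11591 of the 24016 transcripts in the table. The groups used were siKlf5 on day 2 and on day 3, the same days in siCtrl cells, and, in fewer sentences, siKlf5 on days 0 and 1. The labels name no engineered allele, and all cells come from the same line. As each siRNA and day has 1 library, no value has a replicate error, no p-value is given, and Klf5 was lowered and not deleted. In cultures of mixed cells, fewer cells of a type and less RNA per cell cannot be told apart.

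Skeletal myoblasts differentiate under the myogenic factors Myod1 and Myog, basic helix-loop-helix proteins that bind E-boxes, together with Mef2 proteins. Cells first stop making DNA replication and mitosis transcripts, then express contractile proteins, and embryonic myosin is the first of the heavy chains to become abundant, before the perinatal and adult fast forms. Late in this course the membrane system that couples excitation to calcium release is built. Klf5 is a zinc finger transcription factor of the Kruppel-like family, which binds GC-rich and CACCC sequences.

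The 2 siKlf5 libraries held 11808641 reads on day 2 and 10864084 on day 3, so day 2 was 1.09 times as deep. The 2 siCtrl libraries of the same days were less alike, with 20301506 and 12366627 reads, a ratio of 1.64, and the 8 libraries ranged from 7850497 to 20301506. Klf5 (NM_009769, mm9 chromosome 14, 99697910 to 99712628, plus strand) stood at 35.1, 159.6, 192 and 211 FPKM on days 0, 1, 2 and 3 in siKlf5 cells, and on days 2 and 3 at 614 and 933 in siCtrl cells. The knocked-down gene was thus lower in siKlf5 than in siCtrl cells on both days, and within siKlf5 cells its log2 ratio of day 3 to day 2 was 0.14 with a counting interval of -0.26 to 0.54. Ratios are log2 of day 3 over day 2 after adding 0.1 to each FPKM value, which understates changes at low levels. Intervals are 95% exact (Clopper-Pearson) intervals on reads in units of 6, because reads stood in clumps of that size, and they cover counting error only.

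Of 8 markers of myotubes, all had a mean of at least 10, and their summed level was 16197 FPKM on day 2 and 16754 on day 3 in siKlf5 cells, against 1275 on day 0. Both libraries thus carried the RNA of differentiated muscle cells. Markers of other cell types were measured for comparison, and their part in the results was not tested. The 8 endothelial markers summed to 14.6 and 5.89 FPKM on days 2 and 3, with Pecam1, Kdr, Tie1 and Emcn at 0 on both days, and over the 8 libraries to between 1.24 and 27.1. The 10 macrophage and leukocyte markers summed to 52.99 and 56.2, with C1qa at 0. The 9 adipocyte markers summed to 74.5 and 71.4, with Adipoq, Plin1, Lep and Retn at 0. The 8 osteoblast markers summed to 26.9 and 45.01, with Bglap, Ibsp, Alpl and Sost at 0. The 8 markers of neurons and glia summed to 363 and 280.0, nearly all of it Tubb3, with Snap25, Syt1 and Sox10 at 0. The smooth muscle list, which shares Des and Acta2 with skeletal myoblasts, summed to 3939.5 and 3787, and the fibroblast list, which myoblasts also express in part, to 3989 and 3949.5.

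Between day 2 and day 3 the siKlf5 libraries differed little for most transcripts. The median log2 ratio was -0.05, and 10293 transcripts, 88.8% of those compared, stayed within 1.5-fold. In 5 bins of equal size by mean FPKM, between 32.5% and 50.5% of transcripts lay above 0. Counts of list members on either side of 0 are to be read beside these shares. Past 1.5-fold, 554 transcripts (4.78%) were higher on day 3 and 744 (6.42%) were lower. With upper-quartile scaling the same counts were 723 and 586, so the share of higher transcripts among those past 1.5-fold went from 42.7% to 55.2%, whereas centring on the median gave 50.9%. The scaling therefore sets which direction holds the majority, and the groups below are described by their position beside the median of all transcripts. The counting interval of the ratio lay above 0 for 698 transcripts (6.02%) and below 0 for 873 (7.53%). Only 20 transcripts had the whole interval above 1.5-fold and 11 had it below.

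The change also followed the length of the transcript. When transcripts with exons of at least 200 bases were cut into 5 bins of equal size by exon length, the median log2 ratio was -0.09 in the shortest bin and 0.07 in the longest, and the bin of the longest held 112 higher and 29 lower transcripts, against 157 and 238 in the shortest. Among the 404 transcripts of at least 8000 bases the median was 0.27 and 84.2% lay above 0. The siCtrl step went the other way, with -0.02 in the shortest bin, -0.17 in the longest and -0.29 past 8000 bases. Relative to the mean of all 8 libraries, transcripts of at least 8000 bases had a median of -0.21 in the siKlf5 library of day 2, the lowest of the 8, and 0.04 in that of day 3. The part of this length trend in the results for long genes was not tested, so a length-adjusted ratio, which takes off the median of transcripts of like length, is given beside them.

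**Figure D1:**
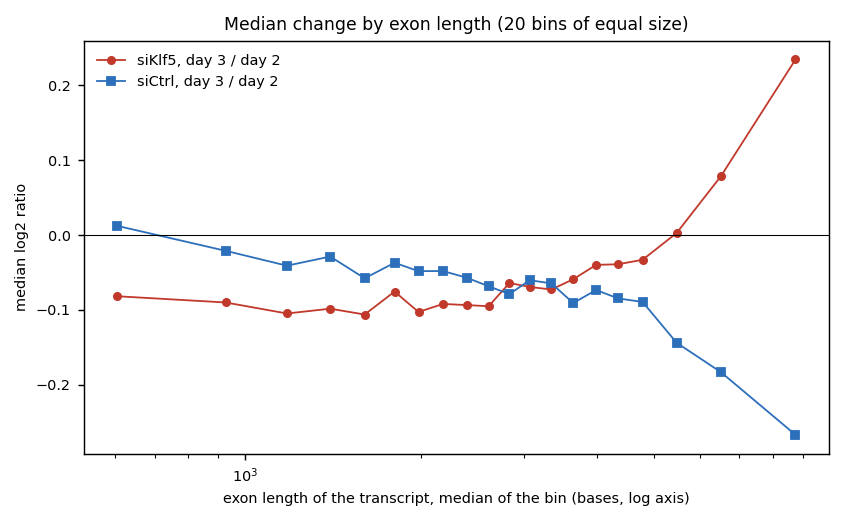
Median log2 ratio of day 3 to day 2 (vertical axis) against exon length in bases (log axis) for siKlf5 (circles) and siCtrl (squares), 20 bins of equal size of transcripts with a mean FPKM of at least 10 and exons of at least 200 bases. The siKlf5 line lies near -0.09 for short transcripts and above 0 for the longest, while the siCtrl line is lowest for the longest.

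The upstream sequences of 5 genes are shown before their values: Myog, the marker of commitment and the factor that binds E-boxes, Casq1 and Myh4, which were past 1.5-fold higher on day 3, and Plk1 and Tk1, which were past it lower. The sequences are the 250 bases before the start of the RefSeq gene on GRCm38.p6, a later build than the mm9 of the expression table, written 5′ to 3′ on the strand of the gene. In the first 3, capitals mark CANNTG, the E-box core read on both strands, and in the last 2 they mark CCAAT and GGGCGG on either strand.
Myog, chr1:134289754-134290003, plus strand: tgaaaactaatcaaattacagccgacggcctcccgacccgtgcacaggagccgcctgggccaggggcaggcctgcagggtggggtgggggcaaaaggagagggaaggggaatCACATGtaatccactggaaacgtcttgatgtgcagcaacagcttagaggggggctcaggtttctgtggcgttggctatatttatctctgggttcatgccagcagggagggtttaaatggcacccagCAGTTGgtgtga
Casq1, chr1:172219896-172220145, minus strand: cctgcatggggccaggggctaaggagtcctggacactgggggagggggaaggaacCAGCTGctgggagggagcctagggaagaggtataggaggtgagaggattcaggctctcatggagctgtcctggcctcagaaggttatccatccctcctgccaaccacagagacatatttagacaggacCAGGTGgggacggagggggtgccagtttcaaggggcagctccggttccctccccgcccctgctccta
Myh4, chr11:67237562-67237811, plus strand: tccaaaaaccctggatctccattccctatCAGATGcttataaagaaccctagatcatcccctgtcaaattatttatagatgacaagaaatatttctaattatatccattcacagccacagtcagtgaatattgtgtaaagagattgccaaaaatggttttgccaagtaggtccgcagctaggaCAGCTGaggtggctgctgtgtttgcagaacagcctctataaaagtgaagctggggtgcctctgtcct
Plk1, chr7:122159185-122159434, plus strand: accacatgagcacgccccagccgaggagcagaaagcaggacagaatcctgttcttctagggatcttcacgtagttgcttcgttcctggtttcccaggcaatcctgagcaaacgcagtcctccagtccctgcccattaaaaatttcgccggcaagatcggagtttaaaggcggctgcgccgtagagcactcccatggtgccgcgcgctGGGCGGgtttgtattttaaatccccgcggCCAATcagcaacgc
Tk1, chr11:117826015-117826264, minus strand: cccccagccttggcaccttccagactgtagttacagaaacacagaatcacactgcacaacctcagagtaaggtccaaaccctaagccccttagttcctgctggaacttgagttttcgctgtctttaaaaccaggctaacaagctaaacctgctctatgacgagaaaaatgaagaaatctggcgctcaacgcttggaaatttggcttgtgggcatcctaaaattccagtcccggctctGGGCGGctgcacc
Each of the first 3 sequences held 2 matches to CANNTG. The Plk1 sequence held 1 CCAAT and 1 GGGCGG, and the Tk1 sequence held 1 GGGCGG and no CCAAT. Each motif was marked and counted only in the sequences named for it, so the marks do not compare the genes. An unmarked CACATG stands near the start of the Plk1 sequence. Near the end of the Casq1 sequence stands an unmarked CCGCCC, which is GGGCGG on the other strand. These matches are descriptions of the letters and not evidence of binding.

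Among the transcription factors of muscle, Myog and Mef2c went opposite ways. Myog (NM_031189, mm9 chromosome 1, 136186581 to 136189125, plus strand) had 328, 1517, 1739.6 and 1386 FPKM on days 0, 1, 2 and 3 in siKlf5 cells. Its last step was a log2 ratio of -0.33 (-0.48 to -0.17), which is within 1.5-fold. In siCtrl cells it had, on days 2 and 3, 2061 and 2293. Day 2 was therefore the highest of the 4 days for Myog in siKlf5 cells, whereas in siCtrl cells day 3 was above day 2. Mef2c, a MADS box factor that acts with Myog on late muscle genes, went from 116 to 218 FPKM, a ratio of 0.91 (0.68 to 1.14), beside 0.95 in siCtrl cells, where it went from 163 to 315. Of the 28 measured factors 1, Mef2c, was past 1.5-fold higher in siKlf5 cells and none lower, whereas 3 were higher with median-ratio centring or upper-quartile scaling. The median of the 28 was 0.03. Myod1, which starts the programme, stayed level at 533 and 557 FPKM. Myf5, the early myogenic factor, had 235 and 174, a ratio of -0.44 (-0.80 to -0.08), and Srf, which binds CArG boxes of actin genes, had -0.36 (-0.62 to -0.10). Six4 had 0.55 (0.21 to 0.90), a value that was 0.53 after adjustment for length, and the 9467-base Tead1 had 0.42, which adjustment took to 0.09.

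**Figure D2:**
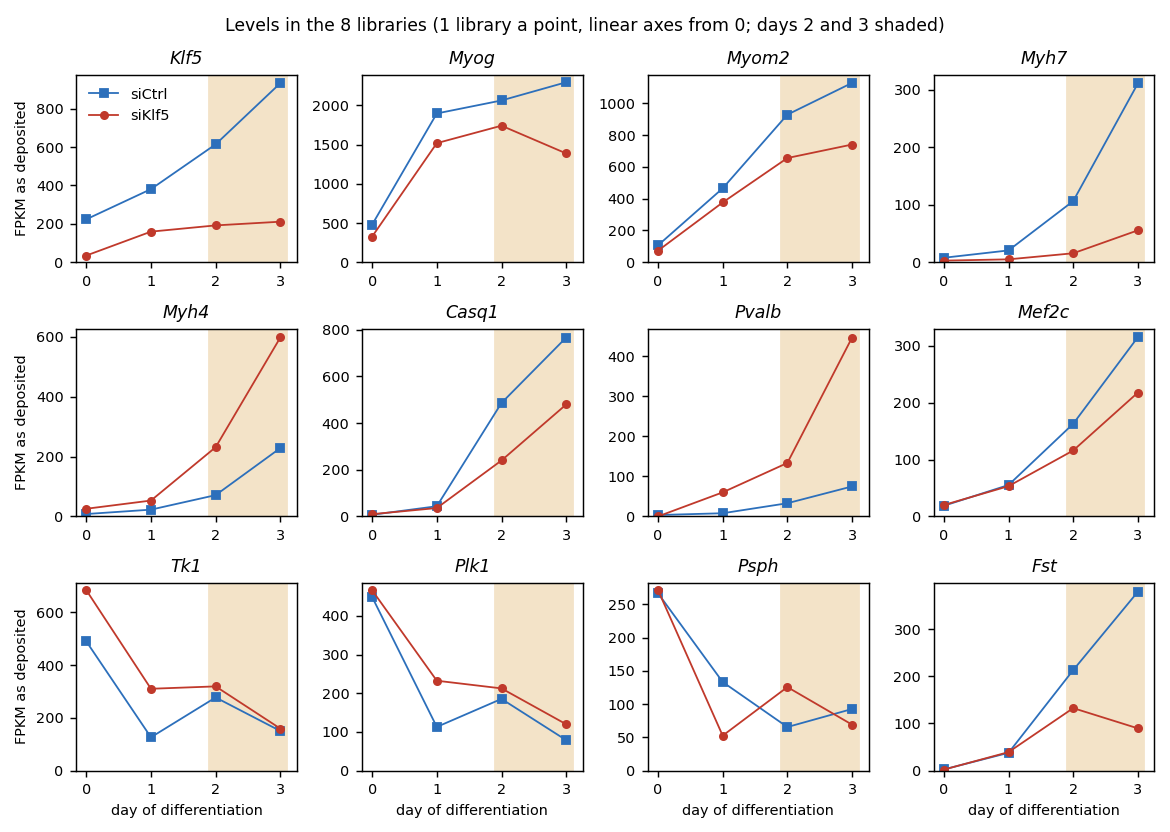
FPKM as deposited (vertical axes, each from 0) on days 0 to 3 for 12 genes in siCtrl (squares) and siKlf5 cells (circles), 1 library a point, with days 2 and 3 shaded. Myh7, Myh4, Casq1, Pvalb and Mef2c climb between days 2 and 3 in siKlf5 cells, Tk1, Plk1, Psph and Fst fall, and Myog falls in siKlf5 cells while it climbs in siCtrl cells.

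The myosin heavy chains, the motors of the thick filament, moved furthest. Of the 8 measured chains 6 were past 1.5-fold higher on day 3 and none lower, and all 8 intervals lay above 0, against 4.78% of all transcripts past 1.5-fold. The median ratio was 0.92, and 0.87 after adjustment for length. Myh4 (NM_010855, mm9 chromosome 11, 67051314 to 67073949, plus strand), the fast IIb chain of adult muscle, had 25.6, 53.03, 231 and 598 FPKM on days 0, 1, 2 and 3. Its last step was a log2 ratio of 1.37 (1.21 to 1.53). Myh1, the fast IIx chain, went from 576 to 1071, and Myh2, the fast IIa chain, from 63.01 to 122. Myh7 (NM_080728, mm9 chromosome 14, 55589525 to 55613386, minus strand), the slow chain shared with heart, was much scarcer, with 15.7 and 55.5 FPKM, but among transcripts with exons of at least 200 bases the lower bound of its interval was the highest, with a ratio of 1.82 (1.23 to 2.46). Its day 3 level was still below the 106 FPKM of siCtrl cells on day 2. Myh6, the cardiac alpha chain, next to Myh7 and similar in sequence, had 4.74 and 12.3 FPKM with an interval of 0.21 to 2.67, so its count is uncertain. Myh8, the perinatal chain, went from 264 to 412, a ratio of 0.64. Myh3, the embryonic chain and the most abundant of the 8, had 2514 and 2685 FPKM, a ratio of 0.09 (0.04 to 0.15). The order of the chains by FPKM was the same on both days, with Myh3 first, Myh1 second and Myh6 last, except that Myh4 passed Myh8 and Myh2 passed Myh7b.

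Other thick filament and M-band genes moved less. Myom2, which crosslinks myosin at the M-band, had 73.1, 376, 656 and 741 FPKM on days 0 to 3, a last ratio of 0.18 (0.05 to 0.30), and 0.22 after adjustment for length. The 13 genes for titin, M-band and myosin-binding proteins had a median of 0.21. Of these 3 (23.1%, beside 4.78% of all transcripts) were past 1.5-fold higher and none lower. Among them were Mybpc2, the fast myosin-binding protein C, at 24.3 and 58.6 FPKM, and Ttn, the molecular ruler of the sarcomere, at 61.8 and 98.2. Ttn has 81737 bases of exon, and adjustment for length took its ratio from 0.67 to 0.34, within 1.5-fold. Mybpc2, at 3594 bases, kept a value of 1.32. Mybph, a small relative of the binding proteins that is abundant in young myotubes, had 1921 and 1724 FPKM, a ratio of -0.16 (-0.28 to -0.03).

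The abundant light chains and thin filament genes stayed near level. None of the 6 light chains and kinases was past 1.5-fold, and their median was 0.17. Myl1, the alkali light chain of fast muscle, had 2419 and 2909.6 FPKM, and Mylpf, the regulatory light chain, had 2860.3 and 3109.5. Of the 19 thin filament genes only Neb, the giant ruler of the thin filament, was past 1.5-fold, with 174 and 323 FPKM and a ratio of 0.89 (0.79 to 0.99). It has 22330 bases of exon, and adjustment left 0.56. Acta1, skeletal actin, had 4439 and 4351 FPKM, and Tnnt2, the cardiac troponin T that young skeletal muscle also makes, had 2509 and 2993. The command in the header of the table sets a limit of 3 reads per position, which bears on densely covered genes. Thin filament genes had a median of 3.26 reads per exon base, as the mean of the 2 siKlf5 libraries, and the heavy chains 0.40. Myh3 was covered far more densely than that median, with 29078 and 28609 reads on days 2 and 3 over 5949 bases. Of the 236 transcripts with 2 to 4 reads per exon base and the 61 with more, none was past 1.5-fold in either direction. The part of this limit in the level ratios of Myh3 and of actin and troponin genes was not tested.

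Several genes that couple excitation to contraction were higher on day 3. Of 27 measured, 7 (25.9%) were past 1.5-fold higher beside 4.78% of all transcripts, none was lower, and 14 intervals lay above 0 and none below, with a median of 0.20. Pvalb (NM_013645, mm9 chromosome 15, 78021548 to 78034586, minus strand), the calcium buffer of fast fibres, was at 0 FPKM on day 0 and at 60.1, 134 and 447 on days 1, 2 and 3. The ratio of its last step was 1.74 (1.21 to 2.31), and its day 3 level compares with 74.9 FPKM in siCtrl cells. Casq1 (NM_009813, mm9 chromosome 1, 174140025 to 174150026, minus strand), which stores calcium in the sarcoplasmic reticulum of fast fibres, went from 239.7 to 479 FPKM, a ratio of 1.00 (0.70 to 1.30). Its slow and cardiac relative Casq2 had 1473 and 1492, a ratio of 0.02 (-0.10 to 0.14). The 2 calsequestrins thus parted, with the fast form higher and the other level. They also differed in coverage, with 0.66 reads per exon base for Casq1 and 2.77 for Casq2. The part of the limit on reads per position in this contrast was not tested. Scn4a, the sodium channel of the muscle membrane, went from 60.9 to 119.5, with a ratio of 0.97 (0.66 to 1.29). Atp2a1, the calcium pump of fast fibres, had 1186 and 1599 FPKM, a ratio of 0.43, at 2.58 reads per exon base. Ryr1, the calcium release channel, was named after its values were seen. It had 259.7 and 424 FPKM, a ratio of 0.71 (0.60 to 0.81), which adjustment for its 15254 bases took to 0.38. After adjustment 5 of the 27 genes were past 1.5-fold.

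At the Z-disc 3 of 22 genes (13.6%, beside 4.78% of all transcripts) were past 1.5-fold higher and none lower, with a median of 0.10. Tcap, which caps titin at the Z-disc, went from 52.3 to 146 FPKM (1.48, interval 0.62 to 2.41), Myoz1, a calcineurin-binding protein of fast fibres, from 28.4 to 73.8 (1.37, 0.35 to 2.49), and Ankrd23 from 525 to 803 (0.61, 0.41 to 0.82). Des, the intermediate filament of muscle, had 1897 and 2113. Other Z-disc genes lay below 0 without passing 1.5-fold. Pdlim5 had -0.42 (-0.66 to -0.17) and Fhl1 had -0.25 (-0.40 to -0.10). Of 21 genes of the dystrophin complex and membrane repair, none was past 1.5-fold higher and 1 was lower, Sgcd at 18.5 and 7.63 FPKM, with an interval of -3.74 to 0.73 that includes 0. Capn3, the muscle calpain, had 0.55 (0.13 to 0.97). Of 15 synapse genes none was higher and 1 was lower, and Chrng, the fetal subunit of the acetylcholine receptor, had 1729 and 2191 FPKM, a ratio of 0.34 (0.22 to 0.46).

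Fusion genes did not move together. Of 16 measured none was past 1.5-fold higher and 2 (12.5%, beside 6.42% of all transcripts) were lower. Of the 16, 8 lay above 0 and 8 below. Tmem8c (Mymk, myomaker), the membrane protein needed for myoblast fusion, had 1428 and 1255 FPKM (-0.19, -0.36 to -0.02), and Cdh2 (N-cadherin) had 0.26 (0.11 to 0.41). Jam3, a junction protein, was past 1.5-fold lower at -0.62 (-1.25 to -0.02), but at -0.52 after length adjustment. In muscle energy metabolism 4 of 25 genes (16%) were higher and 1 (4%) was lower, beside 4.78% and 6.42% of all transcripts. The median was 0.14. Mb (myoglobin), the oxygen store of muscle, went from 530.4 to 890.3 FPKM (0.75, 0.46 to 1.04), Ampd1, the muscle AMP deaminase, from 31.4 to 67.3 (1.10, 0.35 to 1.88), and Pygm, glycogen phosphorylase, from 391.91 to 516 (0.40). In glycolysis 1 of 22 was higher and 1 lower, or 4.55% each, near the 4.78% and 6.42% of all transcripts. The higher gene was Ldhb, a lactate dehydrogenase subunit, with 92.8 and 161 (0.80, 0.19 to 1.42). Slc2a1, the basal glucose transporter, had 400.1 and 271 (-0.56, -0.82 to -0.31), just within 1.5-fold. Of 77 oxidative phosphorylation subunits 1 passed 1.5-fold, Ndufa5 at -0.67 (-1.21 to -0.15) and -0.56 after length adjustment, and of 82 ribosomal proteins and 35 proteasome subunits none did, with medians of -0.08, -0.05 and -0.03. With upper-quartile scaling these medians were -0.00, 0.03 and 0.05, so that ribosomal and proteasome genes took the other sign.

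Cell cycle transcripts were lower on day 3. Of 50 DNA replication genes, 48 lay below 0, 15 (30%) were past 1.5-fold lower against 6.42% of all transcripts, and none was higher. Of all transcripts of similar coverage, 0.1 to 0.5 reads per exon base, 40.6% lay above 0. The median of the 50 genes was -0.48, beside -0.05 for all transcripts, and -0.41 after adjustment for length. The count of 15 was 8 after that adjustment and 9 with median-ratio centring or upper-quartile scaling. Tk1 (NM_001271729, mm9 chromosome 11, 117676833 to 117687328, minus strand), thymidine kinase of the salvage pathway, had 685, 310.3, 319 and 159 FPKM on days 0, 1, 2 and 3, so that it was level between days 1 and 2 and lower on the last day (-1.0, -1.46 to -0.56). Chaf1a, a subunit of the chromatin assembly factor, had 119 and 67.2 (-0.83, -1.28 to -0.39), and Prim1, the catalytic primase subunit, had 185 and 103 (-0.85, -1.39 to -0.33). The more abundant Pcna, the sliding clamp, had 830.4 and 648 (-0.36, -0.60 to -0.12), and Rrm2, of ribonucleotide reductase, had 679 and 501 (-0.44, -0.65 to -0.23).

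Mitosis genes followed the same course. Of 53, 49 lay below 0, 10 (18.9%, beside 6.42% of all transcripts) were past 1.5-fold lower and none higher, and 28 intervals lay below 0, beside 7.53% of all, and 1 above. The median was -0.39, beside -0.05 for all transcripts. It was -0.32 after adjustment, with 5 past 1.5-fold lower, against 7 with upper-quartile scaling. Plk1 (NM_011121, mm9 chromosome 7, 129302951 to 129313389, plus strand), the kinase that drives mitotic entry, had 466, 232, 212 and 119.8 FPKM on the 4 days, with a last step of -0.83 (-1.24 to -0.42). Incenp, the scaffold of the Aurora B complex, had 199.5 and 124 (-0.69), and Ccnb2, a mitotic cyclin, had 342 and 215 (-0.67). The interval above 0 was that of Mki67, a coat protein of mitotic chromosomes, at 63.5 and 78.9 FPKM (0.31, 0.04 to 0.59). With 10059 bases it is the second longest of the list after Cenpf, and adjustment for length took it to -0.02. Ccnd1, the D cyclin of proliferating myoblasts, had 199 and 123.03 (-0.69, -1.01 to -0.39). Cdkn1a (p21), the inhibitor that accompanies exit from the cycle, had 2037 and 2372 (0.22, 0.11 to 0.33) at 4.1 reads per exon base, and Gadd45a had 958 and 1365 (0.51, 0.32 to 0.71). Of the 30 genes of cell cycle exit and p53, 1 (3.33%) was past 1.5-fold higher and 2 (6.67%) were lower, near the 4.78% and 6.42% of all transcripts.

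Clustered histone genes scattered widely, with 20 of 58 past 1.5-fold higher and 11 lower, but only 3 intervals lay above 0, from at most 2 separate loci, and none below. Their messages mostly lack poly(A) tails, and the libraries were selected for poly(A). The 3 were Hist2h3c1 (139 and 326 FPKM), Hist2h3c2 (143 and 330.1), which overlaps it on the opposite strand so that, without strand, both count largely the same reads, and Hist1h1e (13.2 and 48.7). Small RNAs behaved alike. Of 248 transcripts named as microRNA, small nucleolar or small nuclear RNA, 59 were higher and 77 lower, yet all 248 intervals included 0, since the larger of the 2 libraries had a median of 6 reads. Histone and small RNA counts past 1.5-fold therefore describe these 2 libraries at a depth where the direction was not detectable for most.

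Transcripts of the stress response to amino acid shortage and unfolded proteins shifted slightly down. Of 48 measured, 43 lay below 0. Of all transcripts of similar coverage, 0.5 to 1 reads per exon base, 34.4% lay above 0. The median of the list was -0.13, beside -0.05 for all transcripts, and -0.06 after length adjustment. Upper-quartile scaling took the list to -0.05, but it shifts all transcripts up as well, so that value is not to be set beside the unscaled median. Of its intervals 9 lay below 0, beside 7.53% of all transcripts, and none above. The 4 that were past 1.5-fold lower are 8.33% of the list, near the 6.42% of all transcripts. Psph, of serine synthesis, had 52.5, 126 and 69.1 FPKM on days 1, 2 and 3 (-0.86, -1.53 to -0.22), and Chac1, which breaks down glutathione, had 22.5, 129 and 73.2 (-0.82, -1.46 to -0.20). Both were thus highest on day 2 among the last 3 days. Atf3 and Trib3, the other 2, were at 38.9 and 18.1 and at 38.2 and 23.7 FPKM, with an interval of -1.73 to 0.30 for Trib3 that includes 0. Aldh18a1, of proline synthesis, had -0.46 (-0.82 to -0.11). The abundant chaperones Hspa5 (1459 and 1421) and Hsp90b1 (1727 and 1625) were level. Among 30 cytosolic chaperones 1 was past 1.5-fold, Hspb7, a small heat shock protein of muscle, at 148 and 253 (0.78, 0.45 to 1.10).

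Lipid synthesis shifted slightly up. At a coverage of 0.5 to 1 reads per exon base, near that of the lists here, 34.4% of all transcripts lay above 0. Of 23 cholesterol genes 18 lay above 0 with a median of 0.17, beside -0.05 for all transcripts. Of their intervals 9 lay above 0, beside 6.02% of all transcripts, and none below. Lss, the lanosterol synthase, had 168 and 239.6 FPKM (0.51, 0.22 to 0.81), Insig1, a sterol sensor, 599 and 757 (0.34, 0.17 to 0.51), and Mvd, of the mevalonate pathway, 138 and 202 (0.55). Of 16 fatty acid genes 14 lay above 0 with a median of 0.21. Scd1, a desaturase, had 1074 and 1408 (0.39, 0.30 to 0.48), and Acsl3, which activates fatty acids, 609 and 806 (0.40). Acaca, acetyl-CoA carboxylase, was past 1.5-fold at 0.60, but at 0.43 after adjustment for its 8976 bases. In the 2 lists 1 (4.35%) and 2 genes (12.5%) were past 1.5-fold higher, beside 4.78% of all transcripts, and none lower. The shift lay within that limit for the others.

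Signalling genes moved singly. Of 28 immediate early genes 5 (17.9%, beside 6.42% of all transcripts) were past 1.5-fold lower and none higher, and 3 were lower after length adjustment or with upper-quartile scaling, with Fosl1, an AP-1 subunit, at 144 and 90.04 FPKM (-0.68, -1.24 to -0.14) and Myc at 113 and 71.6 (-0.65, -1.18 to -0.14). Of 16 cytokines 3 (18.8%) were lower and none higher. Csf1, the macrophage growth factor, went from 302 to 172 (-0.81, -1.06 to -0.57), and Ccl2, a monocyte chemokine, from 169 to 92.00 (-0.88, -1.69 to -0.11). In the TGF-beta family 4 of 32 (12.5%, beside 4.78% of all transcripts) were higher and none lower, and 3 were higher after length adjustment. Fst (follistatin), the antagonist of activin and myostatin, was at 39.1, 132 and 89.4 FPKM on days 1, 2 and 3, with a last step of -0.57 (-1.02 to -0.12), just within 1.5-fold. Acvr2a, a receptor of activin and myostatin, had 0.60 (0.19 to 1.01), and Tgfb2 0.59 (0.06 to 1.12). None of 13 insulin-like growth factor genes passed 1.5-fold, although Igfbp5 had 2136 and 2596 and Igfbp2 1552 and 1341. Of 26 progenitor and Notch genes 1 (3.85%) was higher and 2 (7.69%) lower, near the 4.78% and 6.42% of all transcripts. Cd34, a surface marker of quiescent satellite cells, was at 124 and 67.8 (-0.88, -1.40 to -0.37). Of 23 interferon genes 1 (4.35%) was higher and 3 (13.0%) lower, beside 4.78% and 6.42% of all transcripts. The intervals of these interferon genes all include 0.

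Matrix and cytoskeleton changed little. None of 17 collagen chains was past 1.5-fold, and Col3a1 had 2669 and 2544 FPKM. Of 42 matrix glycoproteins and crosslinking enzymes 2 were higher and 2 lower, or 4.76% each, near the 4.78% and 6.42% of all transcripts. Postn (periostin) went from 37.3 to 82.8 (1.15, 0.57 to 1.76), and Loxl2, a collagen crosslinker, had -0.53 (-0.81 to -0.26). Of 22 proteases and inhibitors 1 was lower, Plaur, the urokinase receptor, at 121 and 68.4 (-0.82), and its ligand Plau had -0.42 (-0.59 to -0.25). Among 27 genes of the actin cytoskeleton and smooth muscle 24 lay below 0. Of all transcripts of similar coverage, 2 to 4 reads per exon base, 31.4% lay above 0. The median of the 27 genes was -0.15, beside -0.05 for all transcripts. It was -0.07 with upper-quartile scaling, which also shifts all transcripts up. Of the 27, 1 (3.70%) was past 1.5-fold higher and 2 (7.41%) were lower, and none was past it after length adjustment. Acta2, smooth muscle actin, had 1552 and 1207 (-0.36, -0.49 to -0.24), and Myl9 329.6 and 217 (-0.60, -1.06 to -0.16). None of 29 genes of muscle wasting and autophagy passed 1.5-fold. Fbxo32 and Trim63, the ubiquitin ligases of atrophy, had 0.48 (0.21 to 0.76) and 0.44 (0.08 to 0.81). Among 13 imprinted genes 1 passed, and Peg3 had 0.58 (0.46 to 0.71), just within.

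**Figure D3:**
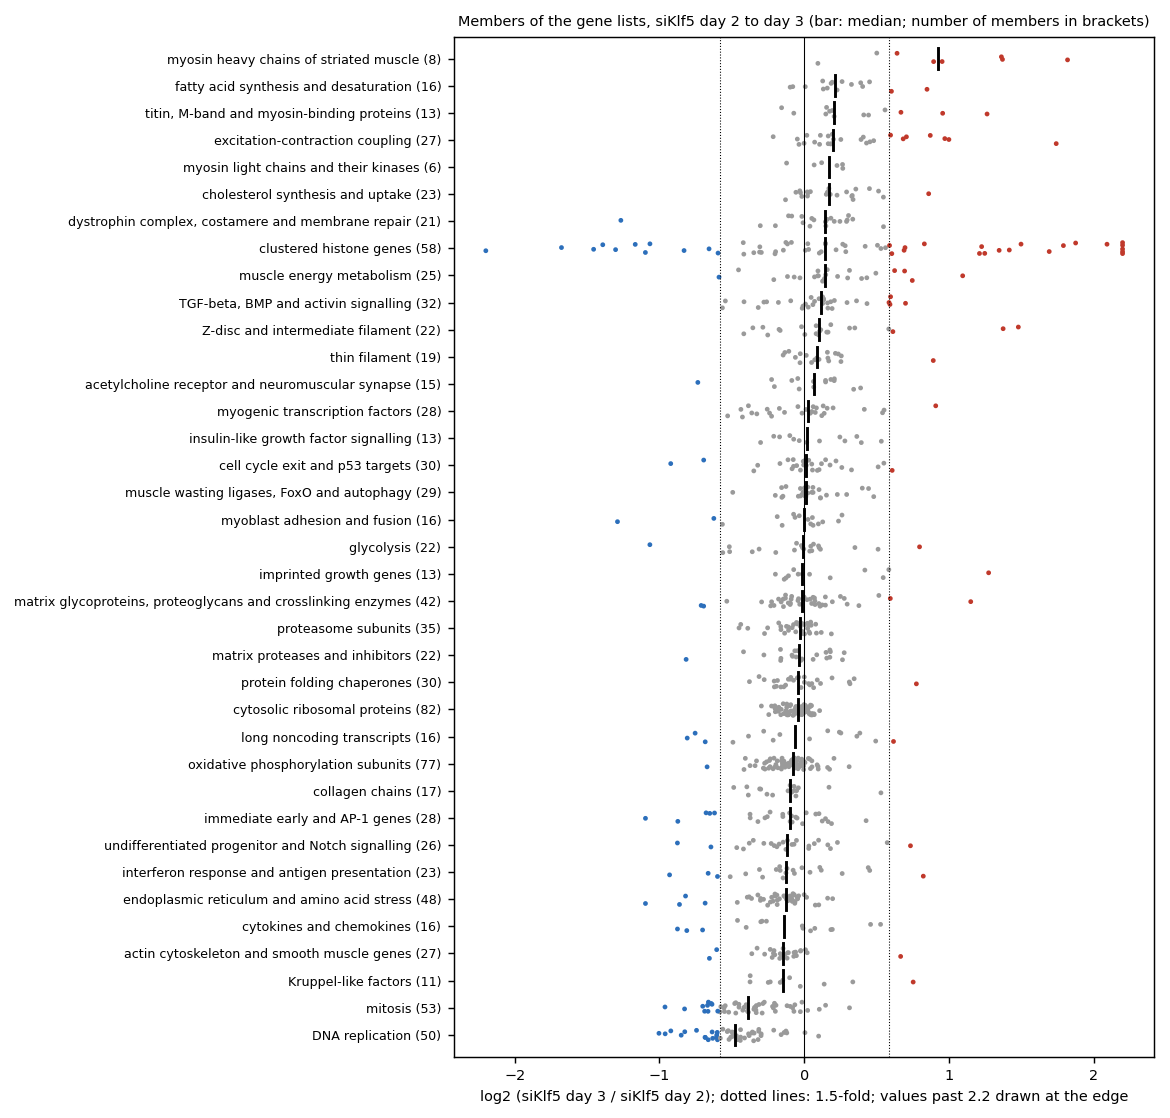
Log2 ratio of siKlf5 day 3 to day 2 (horizontal axis) for every measured member of 37 gene lists, 1 point a gene, with the median as a bar and points past 1.5-fold coloured. The myosin heavy chains lie furthest to the right and the mitosis and DNA replication lists furthest to the left, and ribosomal proteins form the tightest row.

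Of the other Kruppel-like factors 10 were measured beside Klf5. Klf9 was the only one of the 11 past 1.5-fold, with 56.98 and 96.1 FPKM (0.75, 0.27 to 1.25). Klf2 was lower, with 315 and 243 (-0.37, -0.71 to -0.04), and Klf4 and Klf6, the most abundant of the family in siKlf5 cells, had 557 and 503 and 386 and 360.1. Among 16 long noncoding transcripts 1 (6.25%) was past 1.5-fold higher and 3 (18.8%) were lower, beside 4.78% and 6.42% of all transcripts. Malat1, a nuclear RNA, went from 719 to 1102 (0.62, 0.52 to 0.71), and adjustment for its 6981 bases took it to 0.48. Neat1, the scaffold of paraspeckles, had 1029.9 and 1451 (0.49, 0.38 to 0.61), Snhg5, a host of small nucleolar RNAs, 221 and 131 (-0.75, -1.35 to -0.17), and H19, the most abundant of them, 5391 and 5531.

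Of the 20 transcripts with the whole interval above 1.5-fold, 13 belong to the gene lists. These were 4 myosin heavy chains, 4 coupling genes, 2 of the titin and M-band list, and 1 each of thin filament, Z-disc and muscle transcription factors. The lists were written with earlier results of these data known, so this count is not independent of the values. Outside the lists, Asb14, a substrate adaptor of ubiquitin ligases, had 20.03 and 62.4 FPKM (1.64, 0.70 to 2.67), Mfsd12, a lysosomal transporter, 62.1 and 151 (1.28, 0.68 to 1.91), and Ptpn3, a tyrosine phosphatase, 20.3 and 47.4 (1.22, 0.68 to 1.79). Pkhd1 had 16.9 and 38.7 FPKM and Adamtsl1 23.6 and 50.9. Their exons span 12859 and 7809 bases, and their length-adjusted ratios were 0.86 and 0.93. The last 2 outside the lists, Itga4 and Nbeal1, named after their values were seen, had ratios of 0.94 and 1.13 and length-adjusted ones of 0.61 and 0.81. The 20 had a median exon length of 6191 bases, and 18 of them stayed past 1.5-fold after the adjustment. The 2 that did not were Neb and Ryr1.

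None of the 11 transcripts with the whole interval below 1.5-fold belongs to a list. Nefl (NM_010910, mm9 chromosome 14, 68701941 to 68705794, plus strand), the light neurofilament that neurons and some cultured myoblasts express, was by far the most abundant of them, with 1140.2, 1148, 354 and 123.13 FPKM on days 0, 1, 2 and 3. Its level held until day 1 and then dropped on each day, with a last ratio of -1.52 (-1.92 to -1.14). Angptl4, a secreted inhibitor of lipoprotein lipase, went from 162 to 74.6 (-1.12, -1.68 to -0.59), and Cenph, a kinetochore protein, from 107 to 34.6 (-1.63, -2.66 to -0.70). Fancc, of the Fanconi repair pathway, had 49.1 and 14.3 (-1.77, -2.81 to -0.85). The other 7 were scarce. F2rl1, Galnt18, Mb21d1, Pars2, Mcts2 and 2610524H06Rik were between 15.1 and 65.6 FPKM on day 2 and between 1.31 and 11.98 on day 3. AA467197 had 40.6 FPKM on day 2, from 50 reads, and 0 on day 3. With day 3 set to a floor of 3 reads it was 15.4-fold lower, but the bound of its interval nearest to 0 was -0.73. Csf1 and Tk1, described above, and Gpr56, an adhesion receptor, and Bend6 completed the 15 lowest, the latter pair with 113 and 56.00 and with 34.9 and 10.03 FPKM.

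**Figure D4:**
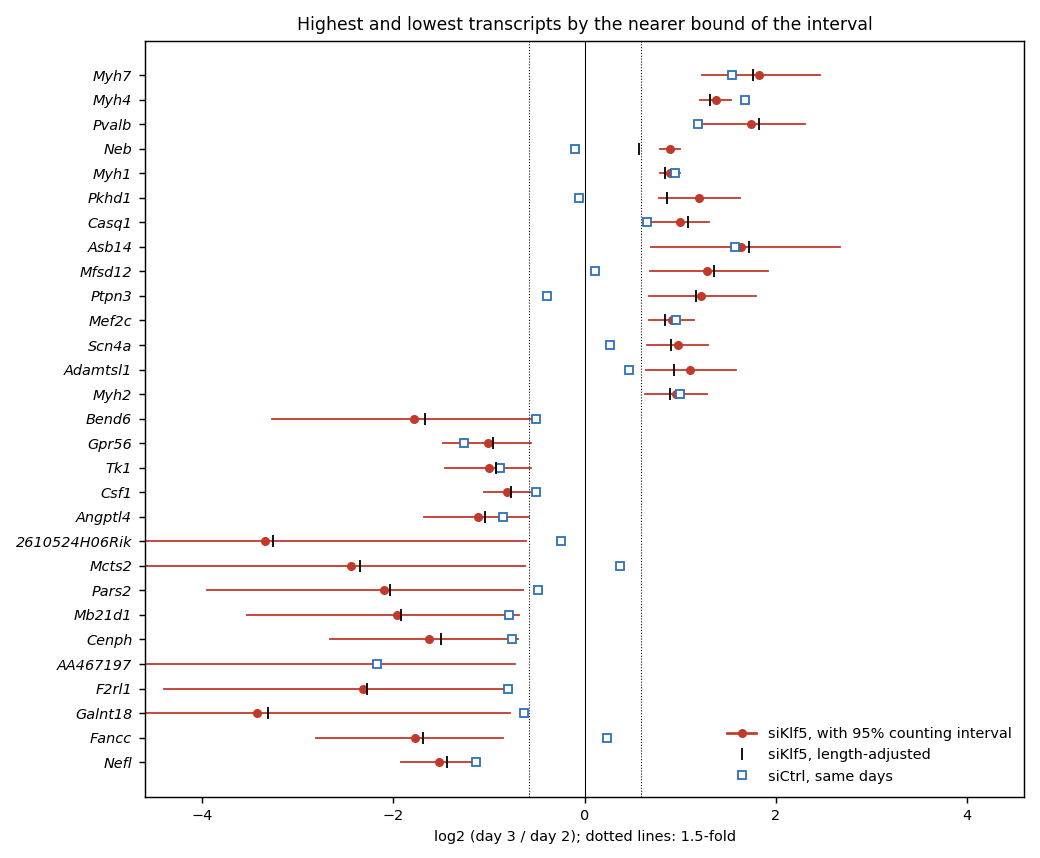
Log2 ratio of day 3 to day 2 (horizontal axis) for the highest and lowest transcripts ranked by the bound of the interval nearest to 0: siKlf5 with its 95% counting interval (circle and line), the length-adjusted siKlf5 value (tick) and the siCtrl value (open square). The 0 reads of AA467197 on day 3 put its siKlf5 point off the axis, and the siCtrl squares of Neb, Pkhd1, Mfsd12 and Ptpn3 lie near or below 0 while their siKlf5 circles lie past 1.5-fold.

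The same step in siCtrl cells served to ask which of these changes are shared. The 2 steps share no library. In siCtrl cells 425 transcripts (3.67%) were past 1.5-fold higher on day 3 and 994 (8.58%) lower, with a median of -0.08. Of the 554 transcripts higher in siKlf5 cells, 116 (20.9%) were also higher in siCtrl cells and 80 (14.4%) were lower, and of the 425 higher in siCtrl cells these 116 were 27.3%. Of the 744 lower in siKlf5 cells, 202 (27.2%) were also lower in siCtrl cells and 56 (7.53%) were higher, and the 202 were 20.3% of those lower in siCtrl cells. Across the 11591 transcripts the 2 steps had a Pearson correlation of 0.09 and a Spearman correlation of 0.18, which length adjustment took to 0.11 and 0.24. These describe transcripts that share libraries and depth and are not replicates. The difference of the steps, siKlf5 minus siCtrl, had a counting interval above 0 for 1035 transcripts (8.93%) and below 0 for 764 (6.59%). That interval is centred on ratios with the added 0.1, so these counts can hold transcripts with 0 reads in a library. Hist1h3e, at 0 in siCtrl cells on day 3, had 4.57 to 15.6, although the intervals of both its steps include 0. As each step rests on 1 library a side, no difference between siRNAs was tested.

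The changes with the widest margin were shared in part. Of the 20 transcripts with the whole interval above 1.5-fold, 9 were also past 1.5-fold higher in siCtrl cells and none was lower. Of the 11 below, 7 were also lower and none was higher. Among the 7, the siCtrl intervals of Galnt18 (-1.59 to 0.25), Mb21d1 (-2.01 to 0.29) and AA467197 (-7.68 to 0.73) include 0. Those of Cenph and F2rl1 end at -0.01. Myosin heavy chains had medians of 0.92 in siKlf5 and 1.22 in siCtrl cells, and all 8 were above 0 in both. For Myh4 the levels differed more than the steps, since siCtrl cells had 71.2 and 228 FPKM, a ratio of 1.68, against 231 and 598 in siKlf5 cells. Myh7 levels lay on the other side, higher in siCtrl cells at 106 and 311, with a ratio of 1.55. Myh7b, named here after its values were seen, had a smaller step in siKlf5 cells, 0.50 against 1.44, a difference of -0.94 (-1.34 to -0.54). Tk1 had -0.88 in siCtrl cells and Plk1 -1.24, and Nefl went from 379.8 to 172.

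Cell cycle lists were lower in both. DNA replication had medians of -0.48 and -0.54, with 46 of 50 genes below 0 in both steps. Mitosis had -0.39 and -0.74, with 49 of 53 below 0 in both, but 44 of the 53 were past 1.5-fold lower in siCtrl cells against 10 in siKlf5 cells, and 18 intervals of the difference lay above 0 and none below, a share of 34.0% beside 8.93% of all transcripts. Plk1 stood at 185 and 78.6 FPKM in siCtrl cells and at 212 and 119.8 in siKlf5 cells, and Mki67 at 89.5 and 38.5 against 63.5 and 78.9. The median difference of the mitosis list was 0.36 before and 0.36 after length adjustment.

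Stress genes mostly went opposite ways in the 2 steps. Of 48 measured, 35 were below 0 in siKlf5 and above 0 in siCtrl cells, as were 2350 of all 11591 transcripts. The list had medians of -0.13 and 0.21. Intervals of the difference lay below 0 for 27 (56.2%), beside 6.59% of all transcripts, and above 0 for none. This was not particular to stress genes. Of 82 ribosomal proteins 53 parted in the same way. Intervals of the difference lay below 0 for 47.6% of them, 57.9% of thin filament genes and 63.0% of the actin cytoskeleton list. Psph had 65.5 and 92.6 FPKM in siCtrl cells, a difference of -1.36 (-2.19 to -0.53), and Chac1 30.5 and 47.1, a difference of -1.45 (-2.43 to -0.47). On day 2 both were thus higher in siKlf5 than in siCtrl cells, and on day 3 Psph was lower. Lipid genes went the other way, with siCtrl medians of -0.04 for cholesterol and -0.10 for fatty acid genes. Intervals of the difference lay above 0 for 8 of 23 and 6 of 16 genes, beside 8.93% of all transcripts, and below 0 for none. Lss had 157 and 155 in siCtrl cells. Fst had 213 and 379 FPKM in siCtrl cells, a difference of -1.40 (-1.89 to -0.91), and Slc2a1 369.9 and 462, a difference of -0.88 (-1.20 to -0.57).

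**Figure D5:**
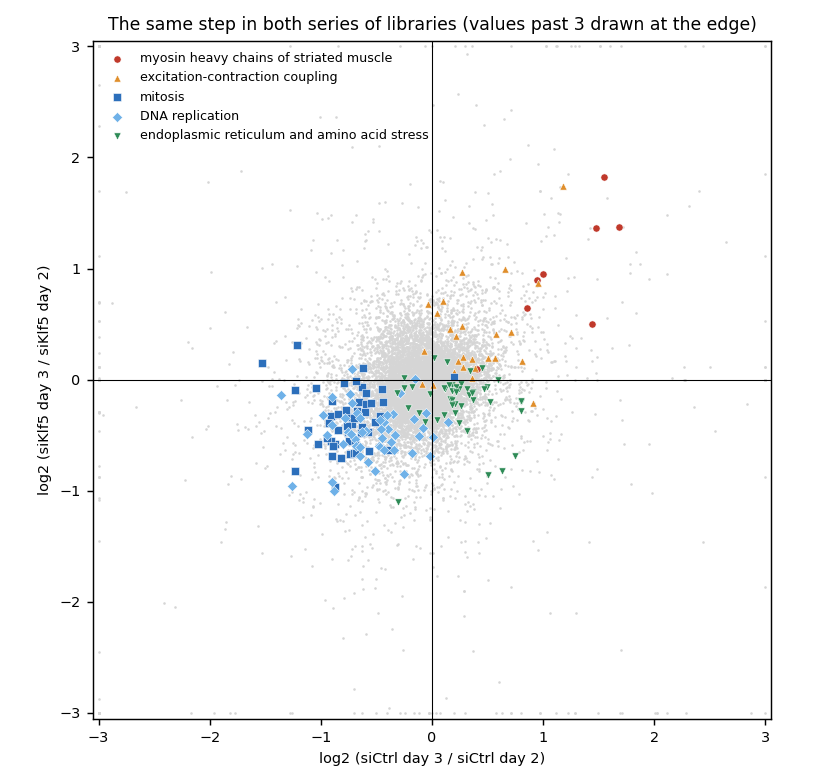
Log2 ratio of day 3 to day 2 in siKlf5 cells (vertical axis) against the same ratio in siCtrl cells (horizontal axis), 1 point a transcript, with 5 gene lists coloured. Myosin heavy chains lie above 0 on both axes, mitosis and DNA replication genes mostly below 0 on both and further out in siCtrl cells, and stress genes mostly right of and below 0.

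Long and densely covered transcripts moved apart in the 2 steps. Those of at least 8000 bases had medians of 0.27 in siKlf5 and -0.29 in siCtrl cells, and the 163 transcripts above 0 in siKlf5 and below 0 in siCtrl cells, with both intervals clear of 0, had a median exon length of 8943 bases. Ttn and Neb had siCtrl ratios of -0.57 and -0.10, and their differences of 1.24 and 0.99 became 0.60 and 0.35 after length adjustment of both steps. Transcripts with at least 4 reads per exon base had a median of 0.40 in siCtrl and 0.05 in siKlf5 cells, with day 2 of siCtrl being the deepest library. For Acta1 the siCtrl ratio was 0.39, for ribosomal proteins the siCtrl median was 0.25, and for thin filament genes 0.39. Myog, with 2.93 reads per exon base in siKlf5 cells, had ratios of 0.15 in siCtrl and -0.33 in siKlf5 cells. Transcripts with 2 to 4 reads per exon base had medians of 0.22 and -0.05. The stress list, whose median was 0.21 in siCtrl cells, had a median of 0.58 reads per exon base. The part of depth and of the limit on reads per position in these differences was not tested.

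The transcripts whose steps differed most were ranked by the bound of the difference. Of the 16 named, 11 had 0 reads in at least 1 of the 4 libraries, so their fitted differences depend on the added 0.1. They included Hist1h3e, Hist1h2ae, Hist1h4c, Hist1h4j, Hist1h2bm and 1110034G24Rik on one side, listed at 0 in 1 library each, and Snord17, Defb25, Hrct1 and Cth on the other, listed at 0 on day 3 in siKlf5 cells after 46.8, 37.4, 3.39 and 5.18 FPKM on day 2. AA467197 was the other. With day 3 set to a floor of 3 reads, Snord17, Defb25, Hrct1 and Cth were 6.14-fold, 6.45-fold, 1.84-fold and 5.53-fold lower. The counting intervals of these steps all include 0, with upper bounds of 1.14, 1.02, 5.40 and 1.39, so their direction is uncertain. With reads in all 4 libraries, Htr2b, a serotonin receptor, had 26.6 and 52.2 FPKM in siKlf5 and 43.4 and 10.9 in siCtrl cells, a difference of 2.95 (1.61 to 4.30). Fancc had 31.2 and 36.7 in siCtrl cells and a difference of -2.01 (-3.08 to -0.93), Mcts2 55.6 and 72.1 and -2.82, and Cys1, a ciliary protein, 27.5 and 14.3 in siKlf5 against 17.8 and 61.5. A ranking added after the values were seen, over the 10510 transcripts with at least 60 reads in each of the 4 libraries, also put forward Ptpn3 (1.62, 0.93 to 2.31), Ago2 (1.29, and 0.87 after length adjustment) and Adam8 (60.2 and 30.6 in siKlf5, 110.0 and 139 in siCtrl cells).

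Within siKlf5 cells the first day of differentiation was the larger step. From day 0 to day 1, 1643 transcripts (14.2%) were past 1.5-fold higher and 2038 (17.6%) lower, and that step shares no library with day 2 to day 3. Of the 554 transcripts higher in the last step, 184 (33.2%) had been higher and 124 (22.4%) lower in the first, and the 184 were 11.2% of those higher in the first. Of the 744 lower, 277 (37.2%) had been lower and 129 (17.3%) higher, and the 277 were 13.6% of those lower in the first. Thin filament genes had a median of 3.40 in the first step and 0.09 in the last, myosin heavy chains 1.55 and 0.92, mitosis -1.04 and -0.39, and DNA replication -1.10 and -0.48. From day 1 to day 2, which shares the day 2 library, the same medians were 0.59, 1.83, -0.07 and 0.07. Cell cycle genes were therefore level over the middle day and lower again on the last. Stress genes had medians of -1.04, 0.45 and -0.13 over the 3 steps.

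Promoters of the moved transcripts were searched last. A promoter was the 300 bases from 250 before to 50 after the RefSeq start on GRCm38.p6, taken for the 6818 compared transcripts whose symbol has 1 promoter in the table, 297 of them higher and 399 lower on day 3. Each motif was searched on both strands. CANNTG was in 64.3% of the higher, 59.4% of the lower and 61.1% of all 6818 promoters, and CAGCTG, which is contained in it, in 15.5%, 13.5% and 14.6%. CCAAT was in 33.3% of the higher and 43.1% of the lower, with 39.6% in all, and GGGCGG in 56.6% and 64.2%, with 68.4% in all. TATAAA was in 10.1% and 6.52%, with 6.66% in all, and the MEF2 site in 4.38% and 2.51%, with 1.69% in all, which is 13 and 10 promoters. CACCC was in 63.3% and 57.4%, with 61.6% in all, TTTGAA in 10.8% and 12.0%, with 11.3%, TGANTCA in 6.06% and 7.52%, with 4.34%, and the CArG box in 0.673% and 1.25%, with 1.41%. Over all 22862 symbols with 1 promoter in the table, the shares were 72.4% for CANNTG, 16.1% for CAGCTG, 56.0% for CACCC, 35.2% for GGGCGG, 38.2% for CCAAT, 14.8% for TATAAA, 18.5% for TTTGAA, 7.98% for TGANTCA, 3.35% for the MEF2 site and 1.53% for the CArG box. These shares are descriptions and were not tested.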

How the data were processed

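Poly(A) RNA was read from both ends. For the files, the authors placed these reads on mm9 by STAR, then scored RefSeq exons by HOMER, with a limit of 3 reads per position, 1 transcript for each gene and no use of strand, so that overlapping and antisense genes cannot be told apart. Both tools are named in the submitters' processing notes, and versions for the RNA libraries are not given in the sources used here. The deposited FPKM values are per 10000000 normalised reads of each library. Another 8 per-sample columns, which hold log2 values, were not used, nor were the ChIP-seq samples.

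Whole reads were recovered from FPKM, exon length and the value of 1 read (all values checked lay within 0.1 of whole). Ratios are log2 of (FPKM + 0.1), no test was run on the counts of transcripts past 1.5-fold, and 95% intervals used reads divided by 6. The difference of 2 steps has a log-normal interval on the same units, centred on the ratios with 0.1 added. Length adjustment subtracted the median of 50 bins of exon length. Alternatives covered the pseudocount, the filter, the scaling and the cutoff, and, added after seeing the data, length adjustment, transcripts under 0.5 reads per exon base and a ranking of differences with at least 60 reads per library. Named were Klf5, Myod1, Myog and Myom2, the 15 highest and 15 lowest transcripts by nearest bound with exons of at least 200 bases, in each of 37 gene lists the 3 highest and 3 lowest members whose interval excludes 0 and the 2 most abundant members of lists mostly within 1.5-fold, and 8 largest differences from siCtrl each way. A transcript that the rule names is not reported here. Genes named outside this rule were chosen after their values were seen. The transcripts, the lists and the rules were chosen with earlier results of these data known. Calculations were tested on simulated data and ran in Python 3.11.15 with scipy 1.17.1 for intervals, pandas 2.3.3 and numpy 2.4.6 for tables, and matplotlib 3.10.9 for plots.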

Additional observations from a re-analysis of the deposited data

Results flagged for a closer look

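5 genes named by rule went opposite ways between days 2 and 3 in siKlf5 and siCtrl cells, with both counting intervals clear of 0 and a difference of at least 1 on the log2 scale. The difference, siKlf5 minus siCtrl, was 1.24 for Ttn, -1.40 for Fst, 1.53 for Mki67, 1.37 for Vcan and 2.95 for Htr2b. None of these differences was tested, as there is 1 library per siRNA and day. After length adjustment of both steps they were 0.60, -1.35, 0.88, 0.72 and 3.01. Ttn, Mki67 and Vcan have 81737, 10059 and 9536 bases of exon, and Fst and Htr2b 2553 and 2066. Vcan (versican), a matrix proteoglycan, had 85.02 and 122 FPKM in siKlf5 and 142 and 78.5 in siCtrl cells.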

How the results depend on the processing

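No paired analysis was possible because the siKlf5 step alone has 1 library a day, no replicate numbers and no residual degrees of freedom, and leaving out a library leaves no comparison. A day effect fitted over both siRNAs answers another question and was not run. The counts of higher and lower transcripts were 2518 and 2588 with no filter, 1457 and 1490 with a mean of at least 1, 140 and 309 with a mean of at least 50, 179 and 241 at a 2-fold cutoff, and 20 and 11 where the whole counting interval had to lie past 1.5-fold. Each of these settings changes by construction which transcripts or ratios are admitted. Under the other alternatives, among them pseudocounts of 1 and 0.01, median-ratio centring, upper-quartile scaling, exons of at least 200 bases and the length adjustment added after seeing the data, the counts stayed within 1.5 times, at 497 to 723 higher and 586 to 751 lower. The share of transcripts past 1.5-fold that were past it the same way in siCtrl cells was 24.5%, and moved to 28.7% with a mean of at least 1, 21.4% with a mean of at least 50 and 21.9% at a 2-fold cutoff. The ratio of Myog lay between -0.33 and -0.23 and that of Myom2 between 0.18 and 0.25 under every alternative run for them. Of 37 list medians, none moved by more than the median half-width of its members' intervals in the 10 settings other than the limit to transcripts under 0.5 reads per exon base, where 7 of 36 did. Medians near 0 took the other sign for 8 lists with median-ratio centring, 9 with upper-quartile scaling and 7 with length adjustment. Depth limits the scarce transcripts, since of the 554 higher and 744 lower only 215 and 291 had an interval clear of 0.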

Other observations

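A few transcripts not described above also stood apart. Dpt (dermatopontin), a matrix protein of fibroblasts, was at 3.09, 22.5, 47.97 and 14.7 FPKM on days 0, 1, 2 and 3, a last ratio of -1.70 (-3.14 to -0.47), while Col1a1 had 769.8 and 867. Musk, the agrin receptor kinase of the synapse, had 219.7 and 288 FPKM in siKlf5 and 248 and 192 in siCtrl cells, a difference of 0.75 (0.41 to 1.09) that was 0.76 after length adjustment. Fgfrl1, a receptor without a kinase domain, had 75.01 and 59.7 in siKlf5 and 117 and 254 in siCtrl cells, and was named after its values were seen. Met, the receptor of hepatocyte growth factor, had 54.6 and 81.4 in siKlf5 and 87.1 and 65.7 in siCtrl cells, with a siKlf5 ratio of 0.57 that was 0.50 after adjustment for its 6628 bases.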
